A study of Homo sapiens with 9 samples.

Results

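The extracellular matrix genes described here are 54 genes outside the collagens: laminin chains, the proteins that tie basement membranes together, elastic fibre and microfibril proteins, matricellular and adhesive glycoproteins, collagen-modifying enzymes, small leucine-rich proteoglycans, and hyaluronan synthases with their partners. The members were chosen by symbol and all 54 were found among the 57733 genes of the tables, on 20 chromosomes, with gene spans of 5.71 to 633 kb and a median of 42.4 kb. Newly made RNA was measured in PANC-1, an established human pancreatic cancer line, in 3 lines: a control without guide RNA (WT) and a pair of clones called KO C22 and KO C28 (clones C22 and C28), made with CRISPR/Cas9 against KDM6A, also known as UTX, which takes a Polycomb methyl mark off histone H3. In Bru-seq, with 2 libraries per line, RNA made during 30 min with 2 mM bromouridine was captured with no chase. In BruUV-seq, with 1 library per line, cells also received UV light at 100 J/m2, which stops polymerases along genes and leaves signal near their starts. Each knockout line is a single clone, so that the knockout and the clone cannot be told apart, and nothing states that replicates came from separate cultures: p-values measure the spread between these libraries, which may be technical.

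The extracellular matrix is built from fibres, basement membrane sheets and hyaluronan-rich gel. Laminins are heterotrimers of an alpha, a beta and a gamma chain that form the basement membrane network, and nidogen, perlecan (HSPG2) and agrin link that network to collagen and to cell receptors. Lysyl hydroxylases (PLOD genes) and prolyl hydroxylases (P4HA genes) modify collagen inside the cell, lysyl oxidases (LOX genes) cross-link it outside, and a dense, cross-linked stroma is a hallmark of pancreatic cancer, most of which is laid down by fibroblasts and part by the tumour cells.

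The results turn in large part on the genes of a lysyl hydroxylase (PLOD2), a hyaluronan link protein (HAPLN3) and a microfibril protein (FBN1), which passed the tests below, and of a matricellular protein (THBS1), which did not. Their RefSeq promoter windows, 300 bases each on GRCh38.p14 and written 5′ to 3′ on the gene's own strand, were picked after the values were seen. PLOD2 and HAPLN3 each hold the letters ACGTG, the core of hypoxia response elements, and so do CD44, FBLN2, FBN2, HAS3, LOX, MFAP2, SPOCK2 and THBS2. FBN1 and THBS1 each hold GGAATG, a motif of TEAD factors, and so do LAMA2, LOXL3, P4HA2, SPARC and THBS2. Members that hold the same letters had differences between lines of either sign. Capitals mark the motif letters on either strand. Positions are counted from the annotated start as 0.
PLOD2: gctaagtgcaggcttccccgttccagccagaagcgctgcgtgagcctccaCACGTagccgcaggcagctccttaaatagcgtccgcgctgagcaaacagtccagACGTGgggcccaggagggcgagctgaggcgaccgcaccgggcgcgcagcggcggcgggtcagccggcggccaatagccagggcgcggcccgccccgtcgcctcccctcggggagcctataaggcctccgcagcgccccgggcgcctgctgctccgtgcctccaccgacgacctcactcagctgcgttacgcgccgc
HAPLN3: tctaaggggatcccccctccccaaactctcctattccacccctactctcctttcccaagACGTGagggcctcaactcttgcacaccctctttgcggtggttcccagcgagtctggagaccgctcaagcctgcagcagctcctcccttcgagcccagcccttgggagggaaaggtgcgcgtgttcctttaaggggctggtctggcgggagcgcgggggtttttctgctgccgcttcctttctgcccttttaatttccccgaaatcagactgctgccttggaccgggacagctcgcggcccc
FBN1: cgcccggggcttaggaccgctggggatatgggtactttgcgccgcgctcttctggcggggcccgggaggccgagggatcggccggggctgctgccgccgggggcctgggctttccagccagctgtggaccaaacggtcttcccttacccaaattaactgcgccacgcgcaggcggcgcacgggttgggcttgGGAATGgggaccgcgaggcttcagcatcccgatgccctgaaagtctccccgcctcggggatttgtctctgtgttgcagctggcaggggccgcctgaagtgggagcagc
THBS1: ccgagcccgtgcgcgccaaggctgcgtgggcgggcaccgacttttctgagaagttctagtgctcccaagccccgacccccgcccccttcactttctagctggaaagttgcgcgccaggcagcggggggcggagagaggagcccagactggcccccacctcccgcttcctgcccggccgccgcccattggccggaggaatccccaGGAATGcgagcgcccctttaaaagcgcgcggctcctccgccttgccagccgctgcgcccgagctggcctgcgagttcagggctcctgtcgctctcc
The PLOD2 window lies at chr3:146161135-146161434 on the minus strand and has ACGTG at -146 and, on the opposite strand, at -200. The HAPLN3 window lies at chr15:88895495-88895794 on the minus strand and has it at -191. The FBN1 window, at chr15:48644921-48645220 on the minus strand, has GGAATG at -58, and its start lies 879 bases inside the gene as the tables draw it. The THBS1 window, at chr15:39580829-39581128 on the plus strand, has GGAATG at -46. The letters ACGTG, searched on both strands and overlapping their own reverse complement in CACGTG, were in 12 of 48 member windows (25%) and in 21.4% of all 35116 windows. GGAATG was in 7 of 48 member windows (14.6%) and in 14.03% of all windows. Both shares in the members were near the shares in all promoters. TGACTCA (AP-1) was in 8.33% of member windows and 4.95% of all, TATAAA in 10.4% and 11.5%, and CAGGTG, an E-box bound by ZEB and SNAI factors, in 16.7% and 20.6%. Windows were found for 40 of the 54 members, with a median GC content of 65.2% against 58.7% over all windows. A match is a run of letters and not a shown binding site.

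Libraries held 5.64 to 31.1 M estimated reads in genes. Bru-seq KO C28 replicate 2 was the shallowest and had 46.5% of its reads outside genes, Bru-seq KO C22 replicate 1 had 20.01%, and the other 7 libraries had 9.93% to 14.1%. Members called, and some others with large differences or with differences that moved much, are given with and without both of these libraries. The targeted gene KDM6A stood at 322 and 276 CPM in Bru-seq WT, 287 and 427 in clone C22 and 337 and 65.9 in clone C28. In BruUV-seq it stood at 203, 125 and 201 CPM in WT, KO C22 and KO C28. Reads over a gene body do not check an edit at a guide site, so these values neither support nor contradict the labels. Of the marker lists, all 5 epithelial markers had reads in every library, with a sum of 116 to 319 CPM in 5 Bru-seq libraries, 2056 CPM in Bru-seq KO C28 replicate 2 and 426 to 1353 CPM in BruUV-seq. The 7 fibroblast markers summed to 5.48 to 51.7 CPM, the 5 leukocyte markers to 0.476 to 19.7 CPM and the 4 endothelial markers to 1.71 to 22.6 CPM, with 0 to 3 markers of a list at 0 in a library. The leukocyte and endothelial sums were highest in Bru-seq KO C28 replicate 2, and their part in the results was not tested.

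In unedited PANC-1 the matrix genes spanned a wide range of nascent signal per length, and CD44, the hyaluronan receptor, stood far above the rest. CD44 was at 51.7 ± 17.96 RPKM (reads per kb of gene scaled to library size, SD, n = 2) in Bru-seq WT and held 56.3% to 83.1% of all member reads in a library. PLOD2 followed at 4.19 ± 0.87 RPKM, then the laminin beta chain LAMB1 at 2.39 ± 0.34, HAPLN3 at 2.30 ± 2.12, the hyaluronan synthase HAS3 at 1.67 ± 0.58 and the pentameric thrombospondin THBS3 at 1.16 ± 1.16. Perlecan (HSPG2) was at 1.09 ± 0.07 RPKM, the laminin gamma chain LAMC1 at 0.988 ± 0.019 and LAYN at 0.946 ± 0.028. In this order the neighbours from LAMB1 to THBS3 did not differ beyond their spread, since the SDs of HAPLN3 and THBS3 were about as large as their means. Of the 54 members 31 reached 0.1 RPKM in WT and 7 reached 1 RPKM, beside 32.8% and 13.7% of all genes in the tables. LUM and MFAP5 were listed at 0 in both Bru-seq WT libraries. Fibronectin (FN1), periostin (POSTN), lumican (LUM), decorin (DCN), biglycan (BGN), versican (VCAN) and elastin (ELN) each had under 100 mean reads in every line.

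**Figure D1:**
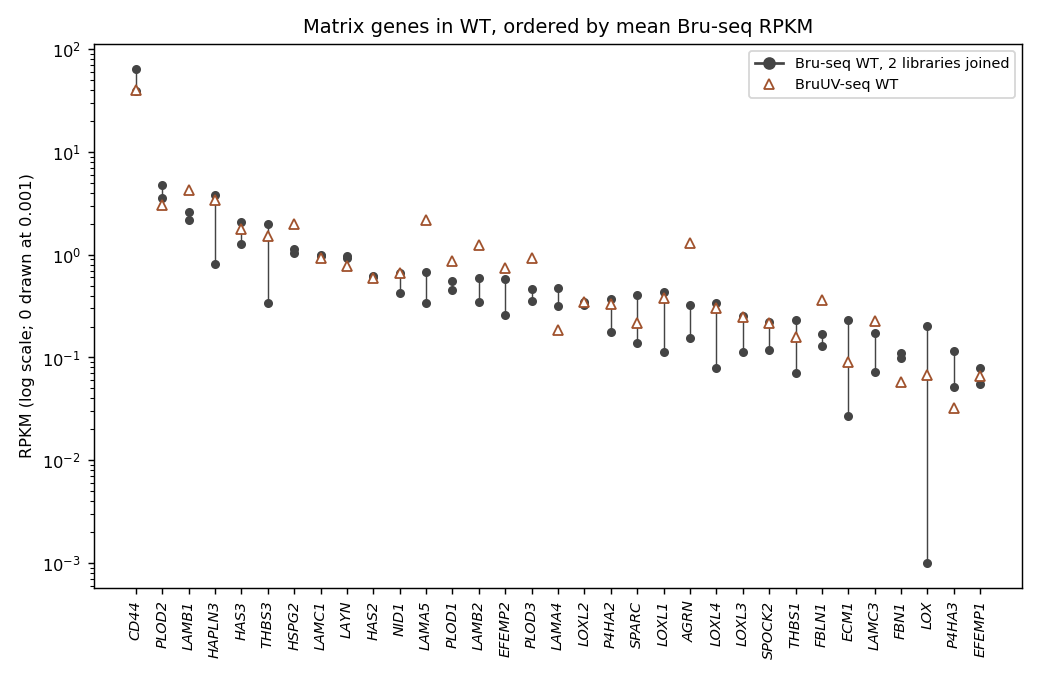
Nascent signal of the 33 matrix genes with the highest mean Bru-seq RPKM in WT, in that order (log axis). Filled points are the 2 Bru-seq WT libraries, joined by a line, and open triangles the BruUV-seq WT library; CD44 stands alone at the top, and LAMA5, AGRN and LAMB2 lie higher in BruUV-seq.

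Differences between lines were tested in edgeR by its quasi-likelihood test, with p-values adjusted over all genes (Benjamini-Hochberg) and a threshold of 0.05. A fit of the 6 Bru-seq libraries tested 49 members, and a fit of all 9 libraries, with a term for the assay, tested 47. The Bru-seq fit alone called 0 members in every contrast, where 0.00438% of all genes were called in KO C22, in KO C28 and in the mean of both clones against WT, and 0% between the clones. At an unadjusted p below 0.05 it had 6 members in KO C22 (2.01% of all genes), 7 in KO C28 (6.28%), 7 for both clones (3.35%) and 8 between the clones (3.27%). DESeq2 on the same 6 libraries called 5, 5, 4 and 3 members, beside 91, 205, 121 and 53 genes in all. All adjusted p-values below are from the fit of both assays, which takes a line's difference to be the same in Bru-seq and BruUV-seq.

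In KO C22 that fit called 1 member higher and 0 lower, beside 0.178% of all genes called (0.125% higher and 0.0528% lower). In KO C28 it called 0 members higher and 3 lower, beside 0.125% of all genes (0.0817% higher and 0.0432% lower). For the mean of both clones it called 0 higher and 2 lower, beside 0.231% (0.12% higher and 0.11% lower). Between the clones it called 0 members, beside 0% of all genes, where DESeq2 called 5 members and 228 genes in all. Counted by sign alone, 33 of the 47 tested members were higher in KO C22 (median log2 fold change 0.53, over all genes 0.02) and 26 of 47 in KO C28 (median 0.34, over all genes -0.06), beside 51.5% and 47.1% of all genes. At an unadjusted p below 0.05 the members numbered 13 in KO C22 (5.86% of all genes), 13 in KO C28 (10.5%), 10 for both clones (8.1%) and 9 between the clones (5.71%). Many of the members that passed the filter on low counts did so through the libraries in which they were high, so that these counts do not speak for all 54 members.

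**Figure D2:**
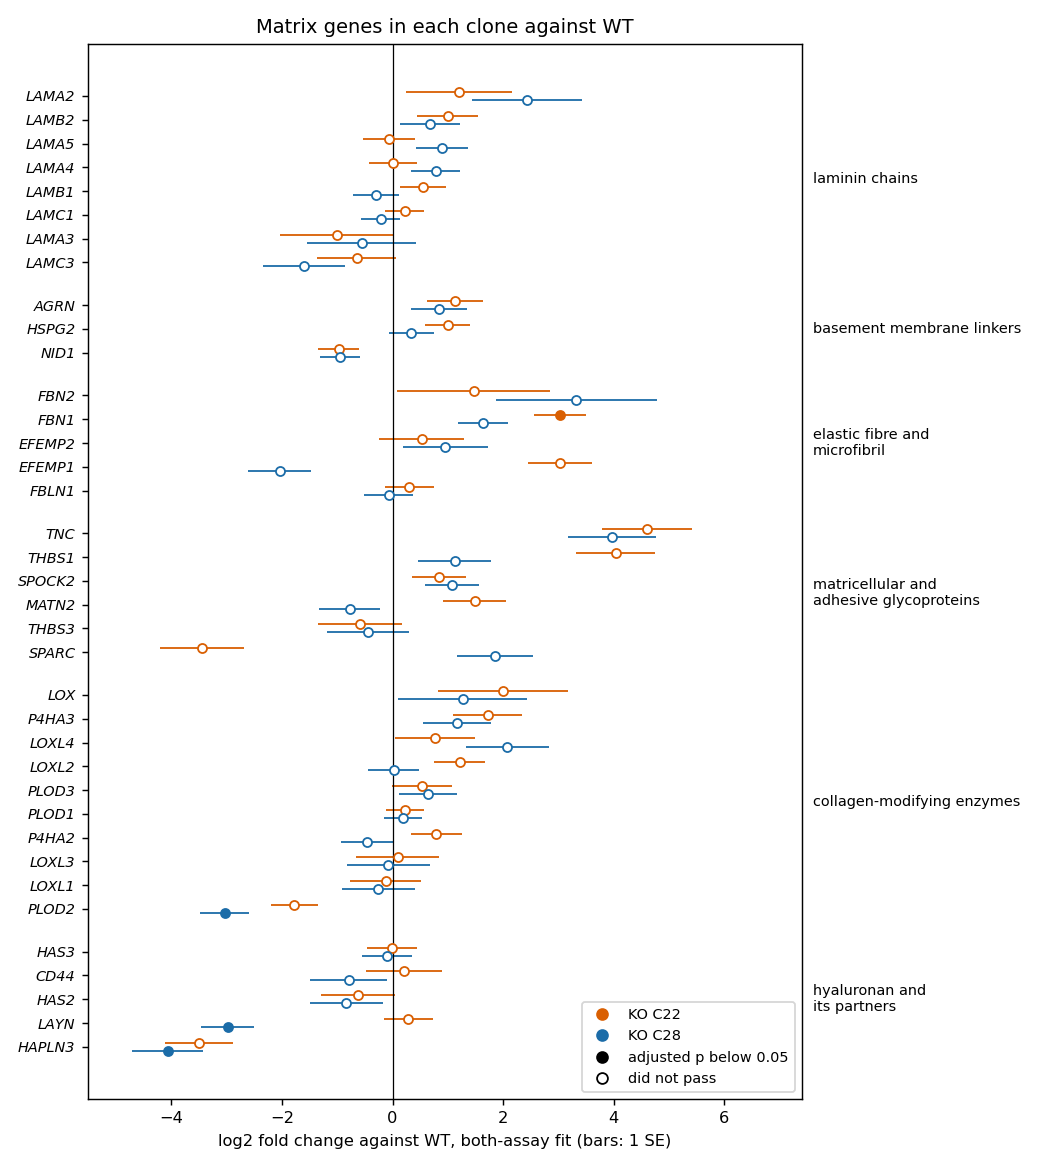
Log2 fold change against WT in KO C22 (orange) and KO C28 (blue) from the fit of both assays, for the members with a mean of at least 100 reads in 1 line, by role. Bars are 1 SE and filled points passed an adjusted p of 0.05: FBN1 in KO C22, and PLOD2, LAYN and HAPLN3 in KO C28.

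Among the collagen-modifying enzymes, PLOD2, a lysyl hydroxylase that modifies the collagen telopeptide and sets the kind of cross-link collagen fibres form, was lower in both clones. PLOD2 (ENSG00000152952.11, chr3:146069440-146161167, minus strand) stood at 389.5 and 540.0 CPM in the Bru-seq WT libraries, 102 and 221 CPM in KO C22, and 61.6 and 64.1 CPM in KO C28. In BruUV-seq it stood at 299 CPM in WT, 61.5 in clone C22 and 30.3 in clone C28. No library of a clone reached a WT library of the same assay, and KO C28 was the lowest line in both assays. PLOD2 fell by 3.04 on the log2 scale in KO C28 (SE 0.44, edgeR adjusted p = 0.0282) and by 2.41 in the mean of both clones (SE 0.34, adjusted p = 0.0174). In KO C22 alone the difference was -1.78 (SE 0.43, adjusted p = 0.199). Without the 2 libraries with most reads outside genes, the difference of PLOD2 in KO C28 was -3.04 (adjusted p = 0.0126) and that of both clones -2.30 (adjusted p = 0.0096).

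The call for PLOD2 in KO C28 held in 3 of the 9 fits that left out a single library, with log2 differences of -3.28 to -2.86 and adjusted p-values of 0.0136 to 0.301, and was lost without either Bru-seq WT library, without Bru-seq KO C28 replicate 1 and without any BruUV-seq library. For both clones it held in 4 of 9 (adjusted p 0.00844 to 0.345) and was lost without either Bru-seq WT library and without any BruUV-seq library. PLOD2 kept its sign in all of these fits. Its neighbours were low in the same libraries. LNCSRLR, a noncoding RNA gene 0.255 kb downstream of PLOD2 on the same strand, had 12.4 and 14.9 CPM in Bru-seq WT, 5.35 and 8.07 in clone C22 and 0.846 and 1.70 in clone C28 (log2 difference -4.37 in KO C28, adjusted p = 0.156). PLSCR4, a phospholipid scramblase gene 31.2 kb upstream on that strand, had 8.15 and 15.1 CPM in WT and 0.31 to 2.32 CPM in the clones' Bru-seq libraries (log2 differences -3.51 in clone C22 and -4.07 in clone C28, adjusted p = 0.302 and 0.204). Reads that run on from PLOD2 into LNCSRLR cannot be told apart from its own.

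The other lysyl hydroxylases did not follow PLOD2. PLOD1 differed from WT by 0.23 (SE 0.34) in clone C22 and 0.19 (SE 0.34) in clone C28, and PLOD3, which also glycosylates collagen, by 0.54 (SE 0.54) and 0.65 (SE 0.53). Of the 10 enzymes tested, 0 passed higher, beside 0.125% of all genes in KO C22 and 0.0817% in KO C28. At an unadjusted p below 0.05 there were 3 in KO C22 (2 higher) and 2 in KO C28 (1 higher), beside 5.86% and 10.5% of all genes. By sign 8 were higher in clone C22 and 6 in clone C28, beside 51.5% and 47.1% of all genes. The prolyl hydroxylase gene P4HA3 was at 2.79 and 6.35 CPM in Bru-seq WT, 9.78 and 9.71 in clone C22 and 8.67 and 9.04 in clone C28, and at 1.56, 12.5 and 5.46 CPM in BruUV-seq, without passing (log2 difference for both clones 1.44, SE 0.56, adjusted p = 0.583). In both assays each clone library of P4HA3 lay above WT. LOXL2, a lysyl oxidase that acts on basement membrane collagen, was at 34.2 and 37.4 CPM in Bru-seq WT, 57.8 and 105 in clone C22 and 28.1 and 17.8 in clone C28, and at 33.2, 81.6 and 72.8 CPM in BruUV-seq. The KO C28 libraries of LOXL2 thus lay below WT in Bru-seq and above it in BruUV-seq. The log2 difference was 1.21 (SE 0.46, adjusted p = 0.679) in clone C22 and 0.02 (SE 0.47) in clone C28, or 0.43 (SE 0.42) in clone C28 without the 2 libraries with most reads outside genes. LOXL4 was at 1.92 and 8.48 CPM in Bru-seq WT, 3.57 and 14.7 in KO C22, 7.59 and 25.9 in KO C28, and at 6.66, 10.6 and 45.2 CPM in BruUV-seq, with WT and KO C28 overlapping in Bru-seq (log2 difference in KO C28 2.08, SE 0.75, adjusted p = 0.461). LOX, the founding lysyl oxidase, was listed at 0 in 1 Bru-seq WT library and at 3.73 CPM in the other, beside 5.30 and 9.09 in clone C22 and 3.12 and 3.96 in clone C28.

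Hyaluronan is a long sugar polymer made at the cell surface by HAS enzymes, held by receptors such as CD44 and layilin (LAYN) and tied to proteoglycans by link proteins such as HAPLN3. HAPLN3 fell in the clones. HAPLN3 (ENSG00000140511.11, chr15:88877288-88895626, minus strand) stood at 17.5 and 85.4 CPM in Bru-seq WT, 3.08 and 4.52 in clone C22 and 2.49 and 1.86 in clone C28. In BruUV-seq it stood at 67.3 CPM in WT, 9.25 in clone C22 and 7.87 in clone C28. The WT replicates lay far apart from each other, yet the lower of them was above all 4 Bru-seq libraries of the clones. The log2 difference was -3.78 for both clones (SE 0.48, edgeR adjusted p = 0.011), -4.06 in KO C28 (SE 0.64, adjusted p = 0.042) and -3.50 in KO C22 (SE 0.62, adjusted p = 0.0603).

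For both clones the call of HAPLN3 held in 7 of 9 fits without a single library, with differences of -4.21 to -2.78. It was lost without Bru-seq WT replicate 2 (-2.78, adjusted p = 0.0655) and without the BruUV-seq WT library (-4.21, adjusted p = 0.0576). In KO C28 it held in 2 of 9, without Bru-seq WT replicate 1 and without Bru-seq KO C22 replicate 2, with adjusted p-values over the 9 fits of 0.0181 to 0.207. With both libraries rich in reads outside genes left out, HAPLN3 differed by -3.54 for both clones (adjusted p = 0.0208) and by -3.79 in KO C28 (adjusted p = 0.0712), which ends the KO C28 call. Subtracting a background measured in the emptiest 10% of gene bodies also ended it (adjusted p = 0.0505), as did DESeq2 size factors in place of TMM (-3.99, adjusted p = 0.0545). MFGE8, the gene of a secreted glycoprotein, ends 3.09 kb upstream of HAPLN3 on the same strand and moved with it: 91.3 and 272 CPM in Bru-seq WT, 18.6 and 92.6 in KO C22, 9.69 and 19.8 in KO C28, and 390.0, 99.4 and 50.7 CPM in BruUV-seq. MFGE8 had log2 differences of -1.79 in KO C22 (SE 0.62, adjusted p = 0.581) and -3.38 in KO C28 (SE 0.66, adjusted p = 0.0958). The part of reads running on from MFGE8 in the HAPLN3 counts was not tested.

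LAYN differed between the clones. LAYN (ENSG00000204381.11, chr11:111540508-111561745, plus strand) stood at 24.4 and 24.1 CPM in Bru-seq WT and 25.8 and 35.9 in KO C22, but at 4.21 and 1.61 CPM in KO C28. In BruUV-seq it stood at 17.8, 19.9 and 2.42 CPM in WT, KO C22 and KO C28. Only the KO C28 libraries were low, in both assays. LAYN fell by 2.98 on the log2 scale in KO C28 (SE 0.48, edgeR adjusted p = 0.042), differed by 0.29 in KO C22 (SE 0.44, adjusted p = 0.998), and KO C28 against KO C22 gave -3.27 (SE 0.48, adjusted p = 0.104). The KO C28 call held in 2 of 9 fits without a single library, those without Bru-seq KO C22 replicate 2 and without Bru-seq KO C28 replicate 2, with differences of -3.24 to -2.68 and adjusted p-values of 0.022 to 0.312. After leaving out the 2 libraries with most reads outside genes it held (-2.66, adjusted p = 0.0284), and the difference between the clones then also passed (-3.06, adjusted p = 0.0378). Background subtraction from the emptiest 10% of gene bodies ended the LAYN call (-3.03, adjusted p = 0.0575). SIK2, the next gene on the same strand, did not pass (log2 difference -0.63 in KO C28, SE 0.46, adjusted p = 0.63).

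CD44 stood at 4271 and 7271 CPM in Bru-seq WT, 4105 and 10746 in clone C22 and 3653 and 1761 in clone C28. WT and KO C22 overlapped, while both KO C28 libraries lay below them. CD44 did not pass (log2 difference 0.21, SE 0.69, in clone C22 and -0.79, SE 0.69, in clone C28). Without the 2 libraries with most reads outside genes the difference of CD44 in clone C28 was -0.41 (SE 0.43). HAS2, a hyaluronan synthase, was at 21.1 and 22.5 CPM in Bru-seq WT, 23.5 and 29.0 in clone C22 and 30.8 and 6.69 in clone C28, while in BruUV-seq it was at 18.8 CPM in WT and 3.31 and 5.74 CPM in KO C22 and KO C28. For HAS2 the assays thus gave opposite signs in KO C22, and the fit of both gave -0.62 (SE 0.68, adjusted p = 0.993). HAS3 differed by -0.01 (SE 0.45) and -0.10 (SE 0.45). Of the 6 genes of this group, 2 passed lower in KO C28, beside 0.0432% of all genes. In KO C22 0 passed, beside 0.178% of all genes.

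Among elastic fibre and microfibril genes, FBN1 was higher in both clones and passed in KO C22. Fibrillin-1 polymerises into microfibrils that carry elastin and store latent TGF-beta. FBN1 (ENSG00000166147.13, chr15:48408306-48645849, minus strand) stood at 28.1 and 32.0 CPM in Bru-seq WT, 183 and 309 in clone C22 and 109 and 40.6 in clone C28. In BruUV-seq it stood at 14.7, 119 and 67.4 CPM in WT, KO C22 and KO C28. No WT library reached a clone library of the same assay, and KO C28 replicate 2 came nearest. FBN1 rose by 3.03 in KO C22 (SE 0.47, edgeR adjusted p = 0.0311). In KO C28 the difference was 1.63 (SE 0.45, adjusted p = 0.339) and for both clones 2.33 (SE 0.43, adjusted p = 0.0635), which passed with DESeq2 size factors in place of TMM (2.36, adjusted p = 0.0428).

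The FBN1 call in KO C22 held in 3 of 9 fits without a single library, which were those without each KO C28 library, with differences of 2.68 to 3.16 and adjusted p-values of 0.00236 to 0.373. It was lost without any single WT or KO C22 library. Without the 2 libraries with most reads outside genes, FBN1 passed in KO C22 (3.20, adjusted p = 0.00292), in KO C28 (2.04, adjusted p = 0.027) and for both clones (2.62, adjusted p = 0.00347). A length-dependent offset gave 2.55 in KO C22 with an adjusted p of 0.184, and subtracting the background of the emptiest 25% of gene bodies gave 3.10 with 0.0514, and each ends the call. The genes on either side did not move with FBN1: DUT differed by 0.03 (SE 0.49) in clone C22 and 0.14 (SE 0.49) in clone C28, and CEP152 by 0.60 (SE 0.60) and -0.38 (SE 0.60).

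EFEMP1, the gene of fibulin-3, went opposite ways in the clones without passing. EFEMP1 (ENSG00000115380.19, chr2:55865967-55924139, minus strand) stood at 3.80 and 5.59 CPM in Bru-seq WT, 38.8 and 59.2 in clone C22 and 0.51 and 1.73 in clone C28, and at 4.13, 18.6 and 1.07 CPM in BruUV-seq. The 3 lines did not overlap in either assay. The log2 difference was 3.03 in KO C22 (SE 0.57, adjusted p = 0.0673), -2.04 in KO C28 (SE 0.57, adjusted p = 0.343) and -5.06 between the clones (SE 0.64, adjusted p = 0.0596). With both libraries rich in reads outside genes left out, EFEMP1 passed in KO C22 (3.09, adjusted p = 0.0389) and between the clones (-5.46, adjusted p = 0.0322). EFEMP2, the gene of fibulin-4, differed by 0.53 (SE 0.77) and 0.96 (SE 0.76), and FBLN1 by 0.30 (SE 0.44) and -0.06 (SE 0.44). Without the 2 libraries with most reads outside genes the difference of EFEMP2 in KO C28 was -0.16 (SE 0.65) and that of FBLN1 0.0088 (SE 0.45). FBN2 had 4.35 and 1.35 CPM in Bru-seq WT and 4.34 CPM in KO C28 replicate 1, but 77.8 CPM in KO C28 replicate 2 and 13.6 CPM in KO C22 replicate 1, and under 1.4 CPM in all BruUV-seq libraries. Its high values were thus those of the libraries with most reads outside genes. In KO C28 the log2 difference of FBN2 ran from 0.61 (SE 1.21), without those libraries, to 5.98 over the other settings of the fit of both assays.

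**Figure D3:**
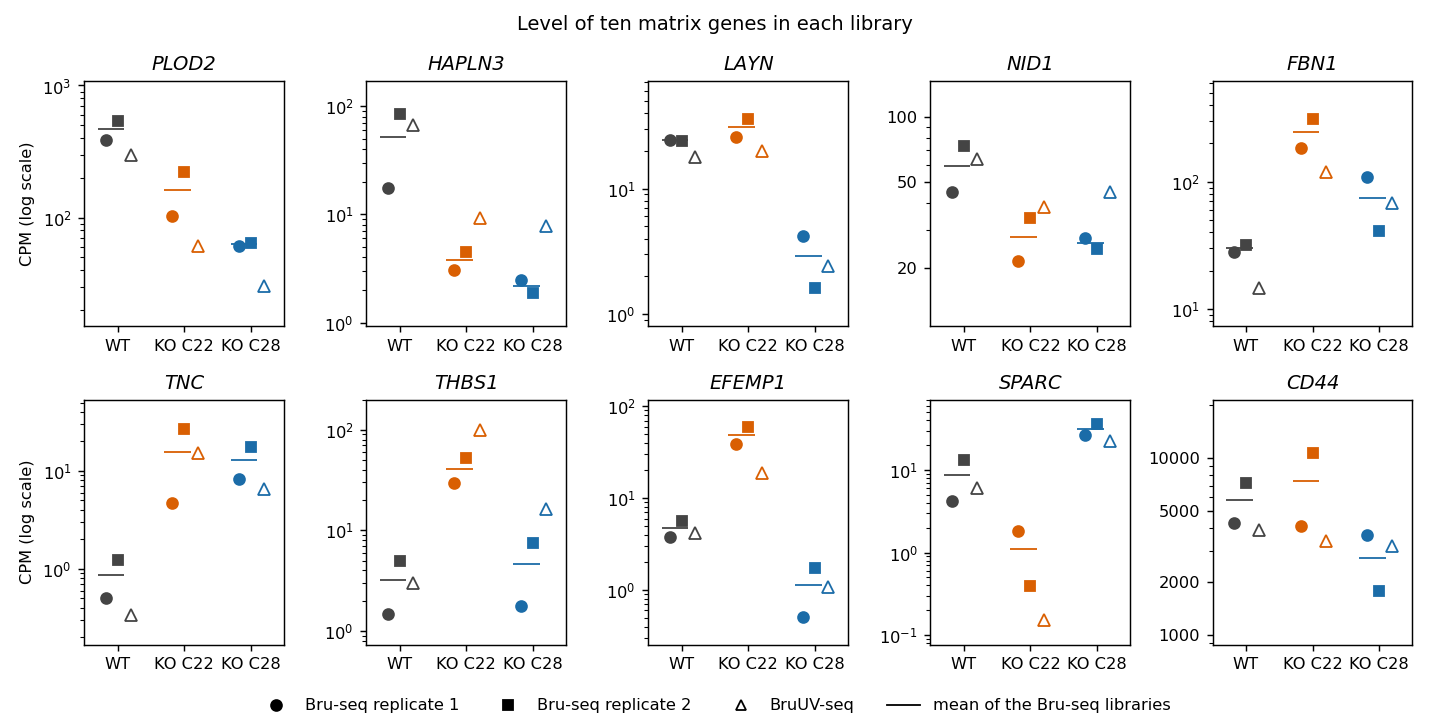
Level of 10 matrix genes in each library, in CPM on log axes. Circles and squares are the 2 Bru-seq libraries of a line, lines their mean and triangles the BruUV-seq library: PLOD2 and HAPLN3 are low in both clones, LAYN in KO C28, FBN1 and TNC are high in both clones, and EFEMP1 and SPARC go opposite ways in the clones.

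Matricellular proteins bind cells and growth factors without building fibres, and 3 of them had large differences that did not pass over all genes. Tenascin-C (TNC), common in wound and tumour stroma, stood at 0.50 and 1.23 CPM in Bru-seq WT, 4.70 and 26.8 in clone C22 and 8.22 and 17.6 in clone C28, and at 0.34, 15.3 and 6.52 CPM in BruUV-seq. Every clone library of TNC was above every WT library. The log2 difference was 4.60 in KO C22 (SE 0.82, adjusted p = 0.0613), 3.97 in KO C28 (SE 0.79, adjusted p = 0.103) and 4.29 for both (SE 0.77, adjusted p = 0.0576). After leaving out the 2 libraries with most reads outside genes TNC passed in KO C22 (5.08, adjusted p = 0.00484), KO C28 (3.64, adjusted p = 0.027) and both (4.36, adjusted p = 0.00618). TNC lies at chr9:115019578-115118257 on the minus strand. PAPPA, a protease gene 1036 kb away, had log2 differences of 2.13 and 2.14 (adjusted p = 0.287 and 0.292).

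Thrombospondin-1 (THBS1), which activates latent TGF-beta, stood at 1.46 and 5.01 CPM in Bru-seq WT, 29.7 and 52.0 in clone C22 and 1.79 and 7.56 in clone C28, and at 2.99, 100.1 and 16.5 CPM in BruUV-seq. KO C22 lay above the other lines in both assays, while KO C28 overlapped WT in Bru-seq. The log2 difference of THBS1 was 4.03 in KO C22 (SE 0.72, adjusted p = 0.0612), 1.12 in KO C28 (SE 0.67, adjusted p = 0.566) and -2.91 between the clones (SE 0.68, adjusted p = 0.339). Without the 2 libraries with most reads outside genes it passed in KO C22 (4.22, adjusted p = 0.0388).

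SPARC, a collagen-binding glycoprotein, stood at 4.26 and 13.1 CPM in Bru-seq WT, 1.84 and 0.40 in clone C22 and 26.3 and 35.7 in clone C28, and at 6.03, 0.15 and 22.2 CPM in BruUV-seq. The lines of SPARC did not overlap, with KO C22 lowest and KO C28 highest, the reverse of EFEMP1. The BruUV-seq KO C22 value rests on 2 reads. The log2 difference was -3.44 in KO C22 (SE 0.76, adjusted p = 0.149), 1.85 in KO C28 (SE 0.69, adjusted p = 0.461) and 5.29 between the clones (SE 0.82, adjusted p = 0.131). With both libraries rich in reads outside genes left out SPARC passed in KO C22 (-4.67, adjusted p = 0.0196) and between the clones (6.43, adjusted p = 0.0218).

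SPOCK2, a testican, was at 4.21 and 8.12 CPM in Bru-seq WT, 8.57 and 12.0 in clone C22 and 11.7 and 9.91 in clone C28, and at 6.92, 14.7 and 21.0 CPM in BruUV-seq (log2 difference for both clones 0.96, SE 0.43, adjusted p = 0.615). MATN2, the matrilin-2 adaptor, differed by 1.49 in KO C22 (SE 0.56) and -0.78 in KO C28 (SE 0.56), and by -2.26 between the clones (SE 0.59, adjusted p = 0.48). THBS3 differed by -0.59 (SE 0.76) and -0.45 (SE 0.74), with WT replicates of 4.99 and 30.1 CPM. With both libraries rich in reads outside genes left out, MATN2 differed by -1.58 in KO C28 (SE 0.45, adjusted p = 0.331) and by -3.12 between the clones (SE 0.49, adjusted p = 0.0706), and THBS3 by -1.16 in KO C28 (SE 0.76). SPARCL1, a relative of SPARC, differed by 3.73 in KO C28 (SE 1.33, adjusted p = 0.457), on 9 and 4 reads in Bru-seq WT and 16 and 49 in KO C28, the 49 in the library with most reads outside genes. Of the 9 genes of this group tested in the fit of all 9 libraries, 0 passed in any contrast between lines with edgeR. At an unadjusted p below 0.05 there were 4 in KO C22 and 4 in KO C28, beside 5.86% and 10.5% of all genes.

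In the fit of all 9 libraries 0 laminin chains passed in any contrast between lines with edgeR. At an unadjusted p below 0.05 there were 0 in KO C22 and 1 in KO C28, beside 5.86% and 10.5% of all genes. LAMA2 was called in KO C28 when the filter on low counts was left off, and LAMC3 in KO C28 in the Bru-seq fit without the 2 libraries with most reads outside genes. Of 9 chains tested, 6 were higher by sign in clone C22 and 5 in clone C28, with medians of 0.22 and 0.68, beside 51.5% and 47.1% of all genes. LAMB1 stood at 203 and 255 CPM in Bru-seq WT, 281 and 502 in clone C22 and 228 and 170.1 in clone C28 (log2 differences 0.55 and -0.30, SE 0.41 each). LAMC1, the gamma chain of most laminins, stood at 142 and 150.1 CPM in WT, 122 and 162 in clone C22 and 118 and 104 in clone C28, and differed by 0.22 (SE 0.36) and -0.21 (SE 0.35). WT and KO C22 overlapped in Bru-seq and both KO C28 libraries lay below them, while in BruUV-seq, at 121, 202 and 138 CPM in WT, KO C22 and KO C28, both clones lay above WT. LAMA5, the main alpha chain of adult epithelial basement membranes, differed by -0.06 (SE 0.47) in clone C22 and 0.90 (SE 0.47) in clone C28, and LAMA4 by 0.01 (SE 0.43) and 0.78 (SE 0.44). LAMB2 differed by 1.00 (SE 0.55) and 0.68 (SE 0.54), and LAMC3 by -0.65 (SE 0.71) and -1.60 (SE 0.74). Without the 2 libraries with most reads outside genes LAMA5 differed by 0.20 (SE 0.42) in clone C22 and LAMB2 by 0.21 (SE 0.58) in clone C28.

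LAMA3, the alpha chain of laminin 332, was low in Bru-seq WT, at 4.53 and 3.98 CPM, beside 6.16 and 0.93 CPM in the Bru-seq libraries of clone C22 and 0.77 and 6.94 CPM in those of clone C28. The higher library of each clone was the one with more reads outside genes. In BruUV-seq LAMA3 was at 4.68, 0.69 and 2.11 CPM. Without the 2 libraries with most reads outside genes LAMA3 differed by -2.44 (SE 0.69) in clone C22 and -1.72 (SE 0.69) in clone C28. It did not pass in either. With all 9 libraries the lowest difference of any laminin chain was smaller, at -1.01 in clone C22 and -1.60 in clone C28. LAMA2, the alpha chain of muscle laminin, was at 5.45 and 2.83 CPM in WT, 20.1 and 1.20 in clone C22 and 5.61 and 49.2 in clone C28, and at 0.63 to 2.19 CPM in BruUV-seq, so that its high values too lay in those 2 libraries. In KO C28 the log2 difference of LAMA2 ran from 0.79 (SE 0.72), without those libraries, to 3.10 over the other settings of the fit of both assays. LAMA3 and LAMB3 are chains of the same trimer. LAMB3 is among 86 other matrix gene symbols listed beside the members, some of them second names of the same gene, with 81 found in the tables. The list holds further laminin chains, glycoproteins and proteoglycans, and further enzymes of collagen and hyaluronan. LAMB3 rose in both clones, by 4.34 in KO C22 (SE 0.45, adjusted p = 0.00442) and 3.55 in KO C28 (SE 0.44, adjusted p = 0.0127). Of those other genes 59 were tested and 3 passed higher in each clone (LAMB3, HMCN1 and SPOCK1) and 0 lower, beside 0.125% and 0.0817% of all genes called higher. By sign 39 of the 59 were higher in clone C22 and 38 in clone C28, beside 51.5% and 47.1% of all genes.

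Of the 4 genes that link basement membranes 0 passed between lines with edgeR. At an unadjusted p below 0.05 there were 3 in KO C22 and 1 in KO C28, beside 5.86% and 10.5% of all genes. Nidogen-1 (NID1), which bridges laminin and collagen IV, stood at 45.0 and 73.0 CPM in Bru-seq WT, 21.7 and 34.0 in clone C22 and 27.7 and 24.5 in clone C28, and at 63.7, 38.4 and 45.2 CPM in BruUV-seq. Each clone library of NID1 lay below the WT libraries of its assay, with a log2 difference for both clones of -0.96 (SE 0.30, adjusted p = 0.412). HSPG2 stood at 142 and 159.7 CPM in Bru-seq WT, 232 and 279 in clone C22 and 179.7 and 129 in clone C28, and at 243, 710.1 and 488 CPM in BruUV-seq. KO C22 was above WT in both assays, and KO C28 overlapped WT in Bru-seq (log2 differences 1.00, SE 0.40, adjusted p = 0.74, and 0.34, SE 0.40, adjusted p = 0.778). Agrin (AGRN) differed by 1.12 (SE 0.51) in clone C22 and 0.84 (SE 0.51) in clone C28, the latter 0.49 (SE 0.49) without the 2 libraries with most reads outside genes.

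With 1 BruUV-seq library a line, ratios between lines have no replicate check, and they are given as log2 ratios with a prior count of 2. PLOD2 had ratios of -2.28 in clone C22 and -3.30 in clone C28 against WT, and HAPLN3 -2.85 and -3.08. FBN1 had 3.00 and 2.19, TNC 5.11 and 3.93, and THBS1 5.01 and 2.42. These signs are those of the Bru-seq means. LAMB2 had 2.23 and 1.59, on 981, 857 and 379 reads in KO C22, KO C28 and WT, and AGRN had 1.86 and 1.43. MATN2 went opposite ways, at 2.10 and -1.14, and LOXL4 stood out in KO C28, at 2.75 against 0.67 in KO C22. LAMA3 had -2.58 and -1.11, on 9, 38 and 111 reads in KO C22, KO C28 and WT.

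BruUV-seq was compared with Bru-seq over the 3 lines in the same fit. It called 2 members higher and 0 lower, beside 0.447% of all genes called (0.427% higher and 0.0192% lower), and 17 members had an unadjusted p below 0.05 beside 25% of all genes. AGRN (ENSG00000188157.14, chr1:1020123-1056118, plus strand) was at 6.51 to 23.6 CPM in the 6 Bru-seq libraries and at 49.2, 179.1 and 133 CPM in the BruUV-seq libraries of WT, clone C22 and clone C28, and rose by 2.93 (SE 0.42, edgeR adjusted p = 0.0353). LAMA5 (ENSG00000130702.15, chr20:62309065-62367312, minus strand) was at 18.5 to 78.2 CPM in Bru-seq and at 135, 207 and 366 CPM in BruUV-seq, and rose by 2.51 (SE 0.39, adjusted p = 0.0371). No Bru-seq library of either gene reached a BruUV-seq library. Each call held in 3 of 9 fits without a single library, with adjusted p-values up to 0.44, and was lost with DESeq2 size factors in place of TMM (adjusted p = 0.0593 for AGRN and 0.0778 for LAMA5). Each call was lost without Bru-seq WT replicate 1, without Bru-seq KO C22 replicate 1, without Bru-seq KO C28 replicate 1 and without any BruUV-seq library. After leaving out the 2 libraries with most reads outside genes both passed, AGRN at 2.99 and LAMA5 at 2.5 (adjusted p = 0.0202 each). LAMB2 (2.31, SE 0.46, adjusted p = 0.0533), PLOD3 (1.63, SE 0.45, adjusted p = 0.0912) and HSPG2 (1.30, SE 0.34, adjusted p = 0.0823) did not pass with all libraries. LAMA2 had the lowest value of the laminins (-3.17, SE 0.97, adjusted p = 0.111). Without the 2 libraries with most reads outside genes, where LAMA2 was high, its value was -1.48 (SE 0.68).

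The difference between the assays went with gene length in the members as in all genes. Of the 20 tested members under 40 kb, 16 were higher in BruUV-seq, with a median log2 difference of 0.80, against 0.41 over all genes of that length. Of the 16 members from 40 to 100 kb 7 were higher (median -0.48, all genes -0.34), and of the 11 of 100 kb or more 4 were higher (median -0.83, all genes -0.90). Across the 47 members the log2 difference and the log length had a Pearson correlation of -0.544 and a Spearman correlation of -0.528, against -0.394 and -0.474 across all genes tested. Genes share libraries and depth, and these correlations are a description. HSPG2, at 115 kb, was higher in BruUV-seq, and HAS2, at 29.3 kb, was lower (-1.48, SE 0.62, adjusted p = 0.174), so that single members departed from the trend.

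**Figure D4:**
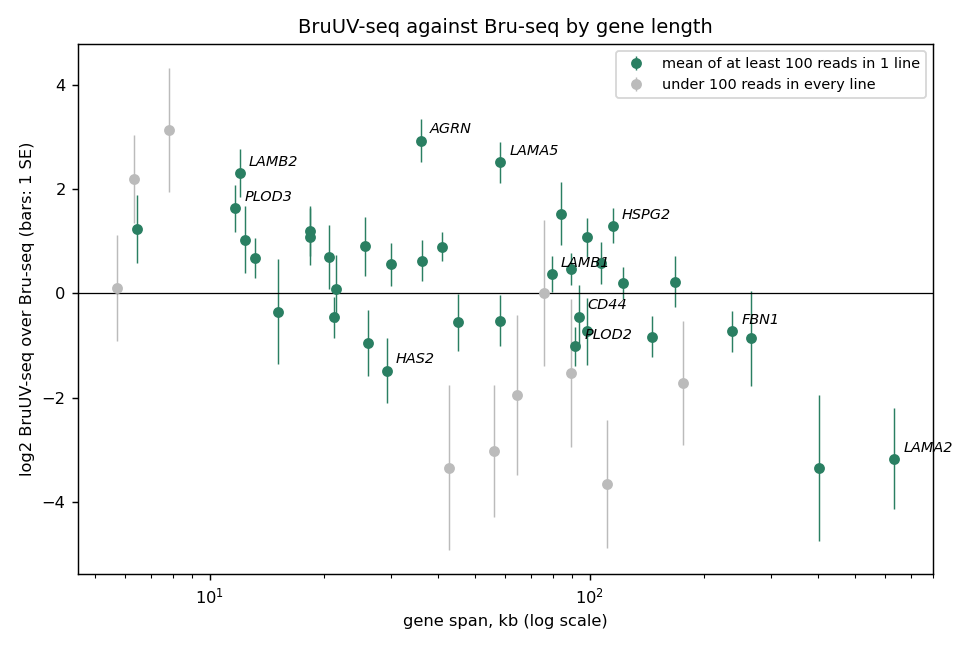
Log2 BruUV-seq over Bru-seq (vertical, bars 1 SE) against gene span in kb (horizontal, log axis) for the 47 tested members. Short genes lie mostly above 0 and long genes below, and AGRN and LAMA5 are the members that passed.

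The 17 members with under 100 mean reads in every line were LAMA1, NID2, FBLN2, FBLN5, SPARCL1, THBS2, POSTN, FN1, VCAN, BGN, DCN, LUM, ECM1, ELN, EMILIN1, MFAP2 and MFAP5. Together they had 371 reads in Bru-seq KO C22 replicate 1 and 639 in Bru-seq KO C28 replicate 2, and 80 to 174 in the other 7 libraries. Their median RPKM was 0.0208 and 0.0522 in those 2 libraries and 0.00146 to 0.00549 in the others. The summed signal of the weakest matrix genes was thus highest where most reads lay outside genes. THBS2 was at 30.4 CPM in Bru-seq KO C28 replicate 2 and at 0 to 1.14 CPM elsewhere, and it was not tested in the fit of both assays, like FBLN5, POSTN, BGN, LUM, ELN and MFAP5. Of the 17 genes, the 10 that were tested in that fit did not pass between lines. THBS2 was called in KO C28 by DESeq2 in the Bru-seq fit. With the filter on low counts left off, the fit of both assays called it in KO C28 and between the clones.

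**Figure D5:**
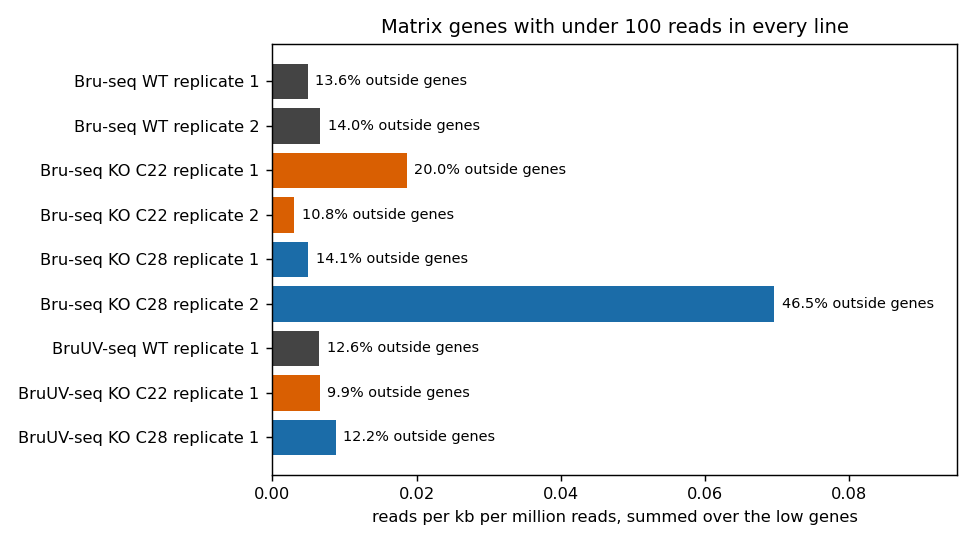
Reads per kb, scaled to the library total that RPKM values imply, summed over the 17 members with under 100 mean reads in every line. Each bar is a library, with its share of reads outside genes beside it. The bars for Bru-seq KO C22 replicate 1 and KO C28 replicate 2 are the longest, and these libraries have the largest shares, 20.01% and 46.5%.

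Some member counts share a locus with another gene. THBS3, PLOD3, LOXL1, LOXL3 and HAS3 overlap genes on the opposite strand (AC234582.1, ZNHIT1, LOXL1-AS1, DOK1 and CHTF8) with 126 to 706 mean reads. NID2 (12.8 mean reads) and THBS2 (32.6) also overlap opposite-strand genes, C14orf166 (954) and BX322234.1 (65.4). If the counting did not use strand, the reads of such pairs cannot be told apart. For LOXL2, 83.0% of the gene body was counted, where ENTPD4 overlaps it on the same strand.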

How the data were processed

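The data are nascent RNA tables of 9 libraries, 2 Bru-seq and 1 BruUV-seq library for each of 3 lines. The deposited tables give, per gene, an expected count (estimated reads, not always whole) and an RPKM value, both made by the authors. Per the submitters' processing notes, CASAVA 1.8.2, Bowtie2 2.3.3, STAR 2.5.3a and bedtools 2.16.2 were used with the builds hg38 and GRCh38. The annotation release, and whether counting used strand, are not given in the sources used here. RPKM divides the authors' counts by a length that leaves out stretches under some overlapping genes.

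Expected counts were rounded to whole numbers for the tests. CPM values are counts over library sizes scaled by TMM over the 9 libraries. edgeR 4.0.16 in R 4.3.3 fitted quasi-likelihood models after filterByExpr: the 6 Bru-seq libraries with 1 coefficient per line (22827 genes, common biological coefficient of variation 79.3%), and all 9 libraries with line and assay (20819 genes, 63.4%). P-values were adjusted by Benjamini-Hochberg over all genes tested, at 0.05. The fits were also run on simulated counts, with changes planted in clone C22 in genes with at least 100 mean reads. Weaker genes and reads outside genes were not covered by it, and no result here rests on it. DESeq2 1.42.0 was an alternative, beside no filter, a length offset, background subtraction and leaving out libraries. The share of reads outside genes comes from the library totals that RPKM values imply. BruUV-seq ratios between lines use a prior count of 2 and genes with at least 100 reads in 1 of the libraries. Reads carry PCR copies, and depth sets counting error.

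The members, the roles, the list of other matrix genes and the motifs were chosen with earlier results of these data known. A member was named by rule if it passed in any contrast, or if it had 1 of the 3 smallest unadjusted p-values of its role with at least 100 mean reads in the higher line. Some of these, among them FBN2, LAMA2, EFEMP2, LAMC3 and LAMB2, are given without every library or adjusted p. The rule named 23 members, and others named in the text were chosen after their values were seen. Replicate numbers were not used to pair libraries.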

Additional observations from a re-analysis of the deposited data

How the results depend on the processing

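The fit of the 6 Bru-seq libraries called 0 members in KO C22, in KO C28, in both clones and between the clones (1, 1, 1 and 0 genes in all), and the fit of both assays called 1, 3, 2 and 0 members, and 2 in BruUV-seq against Bru-seq (37, 26, 48, 0 and 93 genes). With the DESeq2 Wald test the numbers became 5, 5, 4 and 3 members in Bru-seq (91, 205, 121 and 53 genes) and 7, 6, 6, 5 and 11 in both assays (348, 711, 477, 228 and 3941 genes). Without the filter on low counts they were 1, 3, 1 and 2 in Bru-seq (43, 190, 84 and 12 genes) and 7, 9, 6, 5 and 7 in both assays (272, 1100, 649, 230 and 2326 genes). With both libraries with most reads outside genes left out, a setting chosen after seeing the data, they were 6, 4, 4 and 3 in Bru-seq (227, 152, 217 and 128 genes), and in both assays 5 in KO C22, 4 in KO C28, 4 in both clones, 3 between the clones and 8 for the assay (149, 83, 143, 23 and 2552 genes). A length offset gave 1 member for both clones in Bru-seq (11 genes), and in both assays 2 in KO C22 and 1 between the clones (41 and 2 genes). Subtracting the background of the lowest 10% of gene bodies left 1 member in KO C28 (20 genes), and that of the lowest 25%, chosen after seeing the data, left 0 in KO C22 and 1 in KO C28 (20 and 18 genes). DESeq2 size factors left 0 members for the assay (1 gene), and gave 2 in KO C28, where HAPLN3 no longer passed, and 3 for both clones, where FBN1 passed (24 and 45 genes). Leaving out single libraries gave, in Bru-seq, 0 in KO C22, 0 to 2 in KO C28, 0 to 1 in both clones and 0 to 4 between the clones (0 to 22, 0 to 179, 1 to 47 and 0 to 186 genes), and in both assays 0 to 5, 0 to 3, 0 to 4, 0 to 3 and 0 to 9 (3 to 142, 1 to 67, 6 to 114, 0 to 18 and 0 to 3305 genes). HAS2 in KO C22 (-0.62) ran from -1.01 to 0.0494, the latter without the BruUV-seq WT library. The causes were not tested. In Bru-seq, log CPM values were also taken as deviations from the mean of their line. Between libraries with the same number these deviations had correlations of 0.427 (WT with clone C22), 0.004 (WT with clone C28) and -0.479 (between the clones). These correlations of deviations were not over 0.1 in each pair, so the numbers were not taken to pair libraries. The replicate number as a block, or with KO C28 numbers crossed, was run in the Bru-seq fit, where 0 members were called with it as without it. The number of libraries and a coefficient of variation of 63.4% limit the precision, most for genes with under 100 reads.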
